A study of Mus musculus with 3 samples.

Results

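The enzymes that break glucose down to pyruvate and oxidise pyruvate in the mitochondrion were followed across 3 mouse islet libraries. The set was chosen by name and holds 42 gene symbols, from the glucose transporter Slc2a1 through glycolysis, the pyruvate dehydrogenase complex and its kinases, to the citric acid cycle and the enzymes that feed it. All 42 were found, in 43 of the 24119 gene rows of the deposited tables, because Aldoa is listed under 2 gene IDs. All 43 rows had reads in every library.

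In pancreatic beta cells glucose is a fuel and also the signal for insulin release. It enters through a facilitative transporter, is phosphorylated by glucokinase and runs through glycolysis to pyruvate, most of which enters the mitochondrion because these cells hold little lactate dehydrogenase and little monocarboxylate transporter. There the pyruvate dehydrogenase complex makes acetyl-CoA for the citric acid cycle, pyruvate carboxylase makes oxaloacetate, and the ATP that follows closes potassium channels and opens the way for calcium and insulin secretion. The kinases Pdk1 to Pdk4 switch the pyruvate dehydrogenase complex off by phosphorylating its E1 alpha subunit, and shuttle enzymes carry the reducing power of cytosolic NADH into the mitochondrion.

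The libraries came from islets of male C57BL/6 mice, 1 library per group. HFD_CGP islets came from mice fed a high-fat diet and gavaged with CGP 57380, an inhibitor of the MNK kinases that phosphorylate the cap-binding factor eIF4E. HFD_DMSO islets came from mice fed the same diet and gavaged with DMSO, and ND islets were taken from animals kept on the diet the labels call ND, which also received DMSO. The gavage ran for 1 month, and the labels give an age or feeding time of 4 months without saying which. The labels do not give the number of animals behind a library, so the spread between animals is unknown. HFD_DMSO against ND asks about the diet, HFD_CGP against HFD_DMSO about the inhibitor on that diet, and HFD_CGP against ND sets treated high-fat islets beside the normal diet. These comparisons share libraries, so their values are not independent.

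The libraries held 17623816 (HFD_CGP), 16297644 (HFD_DMSO) and 17129042 (ND) reads assigned to genes. Ins1 and Ins2 together took 19.1%, 43.5% and 15.3% of them in that order, and summed acinar cell markers stood at 73.4, 3978 and 13479 CPM. Because 1 dominant transcript pair shrinks the share left for every other gene, levels are given as CPM, read counts brought to a common library size, after TMM scaling, which matches the bulk of genes between libraries. That scaling adds 0.54 to every log2 fold change of HFD_DMSO over ND, and shifts HFD_CGP over HFD_DMSO by -0.65 and HFD_CGP over ND by -0.02. Fold changes use the scaling of each pair, so a ratio of levels for HFD_CGP over HFD_DMSO lies 0.09 log2 units above the fold change. The 95% intervals printed with fold changes and ratios cover counting error only. A member is called higher or lower where its adjusted p in the authors' deposited table is under 0.05. That test assumes a coefficient of variation of 0.2 between libraries, since 1 library per group gives no spread to estimate, and each call compares 2 libraries.

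The 43 rows took 0.488% of all reads in HFD_CGP, 0.328% in HFD_DMSO and 0.488% in ND. Outside Ins1 and Ins2 they took 0.603% (Wilson 95% interval 0.599 to 0.607) in HFD_CGP, 0.581% (0.576 to 0.585) in HFD_DMSO and 0.577% (0.573 to 0.581) in ND. As a share of the transcripts other than insulin, the set was thus of like size in the 3 libraries, with the HFD_CGP interval above the other two.

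Per kilobase of transcript, the most abundant members were the same 3 genes in every library. Aldoa, which splits fructose bisphosphate, stood at 202 CPM per kilobase in HFD_CGP, 188 in HFD_DMSO and 127 in ND. Pkm, the pyruvate kinase of most tissues, stood at 145, 175 and 162 CPM per kilobase in the same order of libraries. Mdh1, the cytosolic malate dehydrogenase of the malate-aspartate shuttle, stood at 92.8, 82.4 and 134. Other abundant members, whose order differed between the libraries, included Mdh2, the malate dehydrogenase of the cycle (51.0, 54.0 and 45), Tpi1, the triose phosphate isomerase (45.5, 49.5 and 48.3), and Idh2, the mitochondrial NADP-linked isocitrate dehydrogenase (46.1, 45.7 and 55.6). The least abundant, apart from the 2nd Aldoa ID with 7, 7 and 20 reads, included Slc2a1, the GLUT1 transporter, at 2.08, 2.01 and 2.13 CPM per kilobase. Its read ratio per kilobase to Slc2a2, the main transporter of rodent beta cells, was 0.0694, 0.0757 and 0.0115. The transcripts of Slc2a1 and Slc2a2 have a GC content of 54.0% and 41.7%. The log2 difference of this ratio in HFD_DMSO against ND was 2.72, and 1.37 after the GC correction described below. The kinases of the pyruvate dehydrogenase complex were also low, between 2.34 and 7.96 CPM per kilobase over the 4 genes and 3 libraries. Counts for Gapdh, Pgam1 and Eno1 are uncertain, because the mouse genome holds near-identical processed copies of these genes and how reads with several matches were counted is not given in the sources used here.

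The start regions of 4 genes that recur below are shown, because Gpi1, Pdk1 and Pgam1 were called and Pdk2 is the kinase set beside Pdk1. Gpi1 and Pdk1 moved in opposite directions in HFD_DMSO, and Pgam1 was the only member called higher in HFD_CGP than in HFD_DMSO. The windows are RefSeq promoters on GRCm38.p6, from 250 bases before to 50 after the start, at chr7:34230287-34230586 on the minus strand for Gpi1, chr19:41911621-41911920 on the plus strand for Pgam1, chr2:71872974-71873273 on the plus strand for Pdk1 and chr11:95041322-95041621 on the minus strand for Pdk2. They are written 5′ to 3′ along the gene. Capitals mark ACGTG, the core of the element that hypoxia-inducible factors bind, and GGGCGG, the GC box that Sp1 binds, on either strand, and Pdk2 also holds CACGTG, an E-box that contains ACGTG and reads the same on both strands.
Gpi1: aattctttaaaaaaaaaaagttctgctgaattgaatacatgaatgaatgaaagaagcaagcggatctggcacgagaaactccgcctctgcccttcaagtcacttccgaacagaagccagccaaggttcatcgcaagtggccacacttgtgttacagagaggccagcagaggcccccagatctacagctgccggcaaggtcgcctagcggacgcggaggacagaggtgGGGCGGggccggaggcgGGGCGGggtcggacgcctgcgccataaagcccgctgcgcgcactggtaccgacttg
Pgam1: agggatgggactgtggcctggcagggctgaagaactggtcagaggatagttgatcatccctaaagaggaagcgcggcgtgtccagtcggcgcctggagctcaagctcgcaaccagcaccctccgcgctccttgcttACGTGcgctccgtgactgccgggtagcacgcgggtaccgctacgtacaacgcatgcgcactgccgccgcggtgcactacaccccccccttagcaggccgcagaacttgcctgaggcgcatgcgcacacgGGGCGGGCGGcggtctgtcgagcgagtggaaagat
Pdk1: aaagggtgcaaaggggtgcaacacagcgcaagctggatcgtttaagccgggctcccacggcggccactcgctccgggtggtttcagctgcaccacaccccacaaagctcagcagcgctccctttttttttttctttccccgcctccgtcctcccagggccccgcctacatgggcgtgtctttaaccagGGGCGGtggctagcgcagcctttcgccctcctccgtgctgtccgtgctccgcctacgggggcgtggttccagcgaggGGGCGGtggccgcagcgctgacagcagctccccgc
Pdk2: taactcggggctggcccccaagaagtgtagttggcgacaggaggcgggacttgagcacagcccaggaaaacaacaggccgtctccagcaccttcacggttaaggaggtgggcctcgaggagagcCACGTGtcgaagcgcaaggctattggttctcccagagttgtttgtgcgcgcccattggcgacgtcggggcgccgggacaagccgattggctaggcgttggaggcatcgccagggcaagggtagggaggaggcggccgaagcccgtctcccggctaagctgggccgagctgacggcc
Gpi1 and Pdk1 each held 2 GC boxes and no ACGTG, Pgam1 held 2 overlapping GC boxes and 1 ACGTG, and Pdk2 held its E-box and no GC box. Of the 41 members with a promoter in the table, 13 (31.7%) held ACGTG, against 19.6% of all 32851 promoters of the same length. CACGTG was in 3 of the 41 members (7.32%), against 7.15% of all promoters. GGGCGG was in 26 of the 41 members (63.4%), against 35.7% of all promoters. The 2 sets are unlike: each member has 1 promoter, the one nearest its start, while all promoters include several for some genes. They were not matched for expression in islets or for promoter GC content. Of the 6 members called lower in HFD_DMSO than in ND that had a promoter there, 0 held ACGTG and 4 held GGGCGG, and of the 2 called higher, 0 held ACGTG and 1 held GGGCGG. A match of letters is no evidence that a factor binds.

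In high-fat vehicle islets, several enzymes of pyruvate oxidation and the cycle had fewer transcripts than in ND islets. The glycolytic enzyme Gpi1 and the lactate dehydrogenase subunit Ldhb had more. In the authors' deposited table for HFD_DMSO against ND, 2 of the 43 rows (4.65%) were called higher, against 12.6% of all 22899 genes, and 7 (16.3%) were called lower, against 13.2% of all genes. The share called lower was thus close to that of all genes, and the share called higher was below it. The other 34 rows were not called. The median log2 fold change of the 43 rows was -0.15, against -0.05 over 16666 genes at the same minimum of 10 normalized counts. By size alone, 3 rows had a log2 fold change of at least 1 and 7 one of at most -1, which held for 22.0% and 22.3% of those genes. The 7 called lower were Pdk1, Pdha1, Dld, Idh3a, Sucla2, Fh1 and Idh1, and the 2 called higher were Gpi1 and Ldhb. With an assumed coefficient of variation of 0.4 in the same test, 0 of the 43 rows were called in any of the 3 comparisons.

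**Figure D1:**
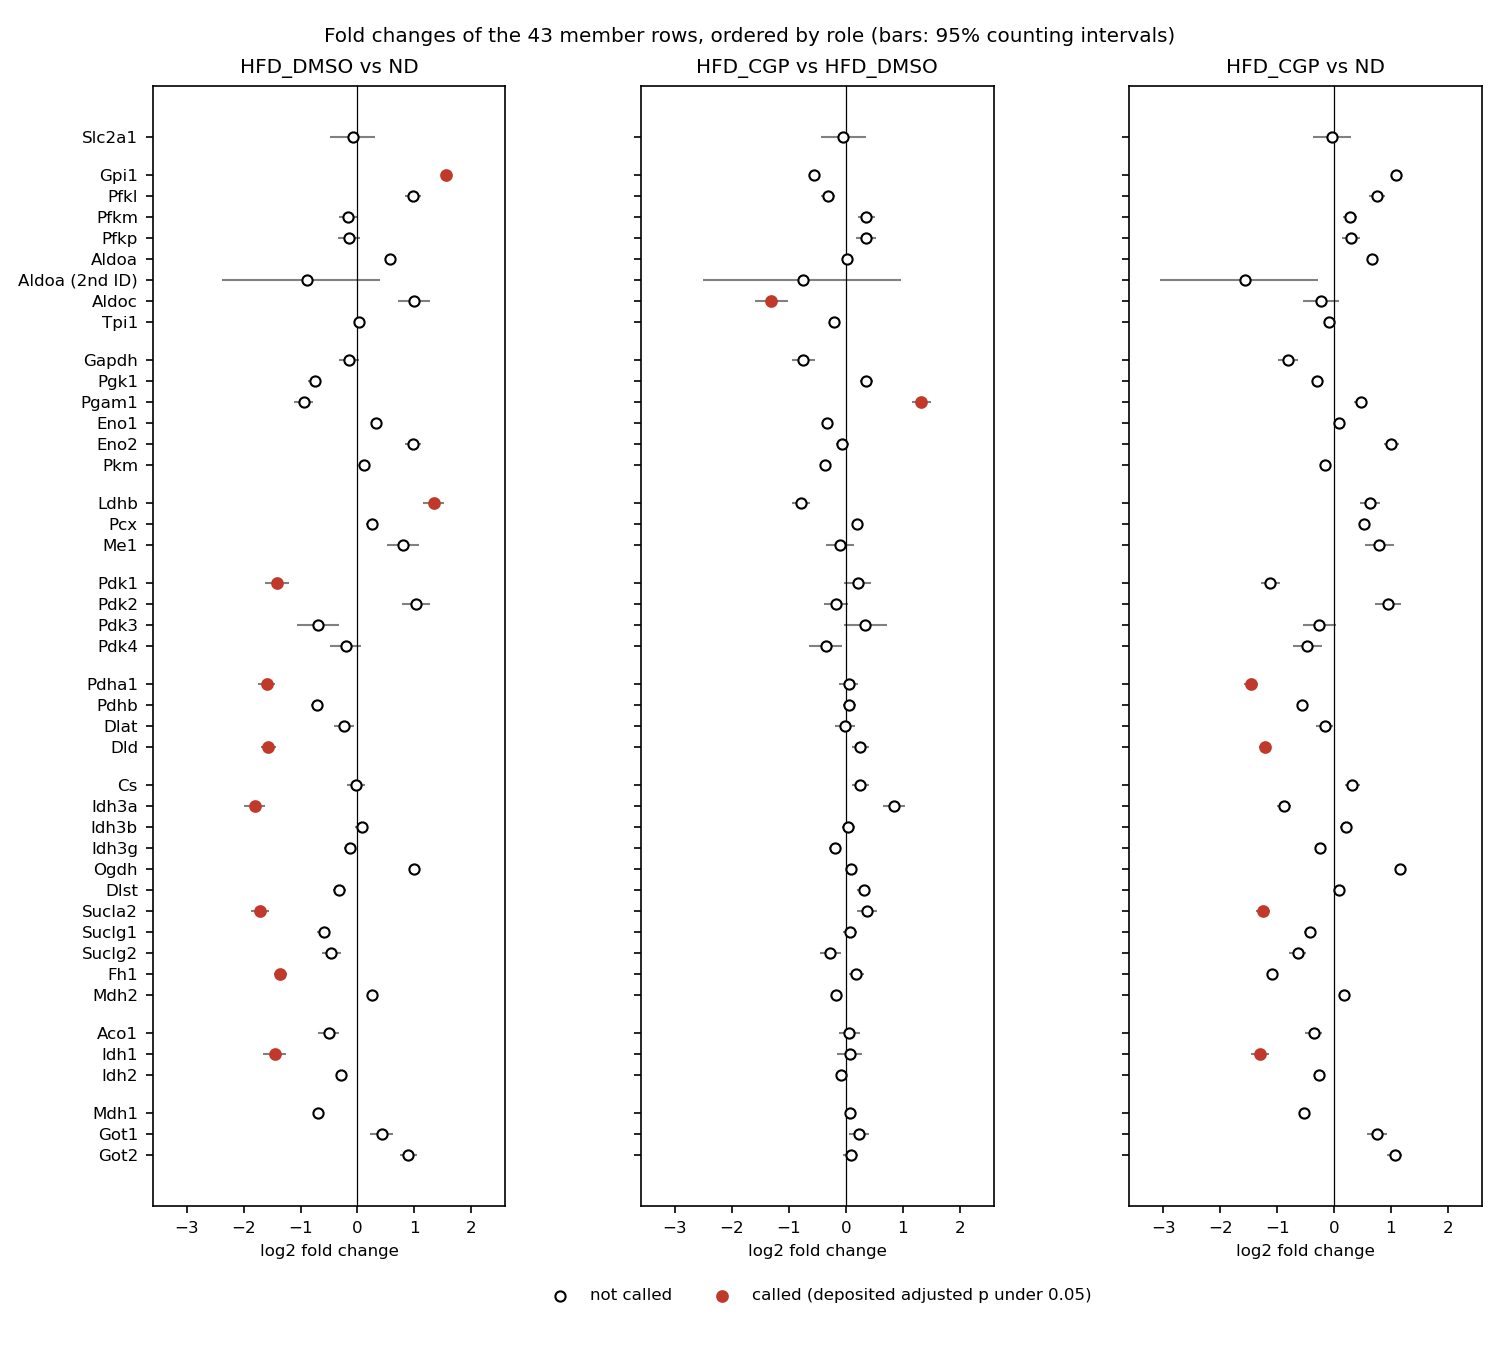
Log2 fold change of each of the 43 rows in the 3 comparisons (x axis, first library over second), in the order of their roles from glucose entry to the malate-aspartate shuttle, with 95% counting intervals as bars. Filled points are called in the authors' deposited table: 9 for HFD_DMSO over ND, 2 for HFD_CGP over HFD_DMSO and 4 for HFD_CGP over ND.

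Among the enzymes from glucose to triose phosphates, Gpi1 (chromosome 7, 34201330 to 34230336), which turns glucose 6-phosphate into fructose 6-phosphate, had 3188 reads in HFD_CGP, 2749 in HFD_DMSO and 1431 in ND. At TMM-scaled levels of 158, 218 and 74.2 CPM it was highest in HFD_DMSO and lowest in ND. It rose by a log2 fold change of 1.55 (1.46 to 1.65) in HFD_DMSO against ND, with an adjusted p of 0.00218 from the exact test in the authors' deposited table. The median over the 8 rows of this group was 0.30, and -0.03 after the GC correction described below. The phosphofructokinases, which commit sugar to glycolysis, were not called. Pfkl, the liver-type subunit, stood at 71.1 CPM in HFD_DMSO and 36.1 CPM in ND, with a log2 fold change of 0.98 (0.83 to 1.12) that was 0.22 after the GC correction, Pfkm, the muscle type, at 41.2 and 46.3 CPM, and Pfkp, the platelet type, at 29.4 and 32.6 CPM. The counts of Pfkl relative to Pfkm thus differed between the libraries: per kilobase the ratio was 0.541 (0.499 to 0.587) in HFD_CGP, 0.864 (0.775 to 0.965) in HFD_DMSO and 0.390 (0.353 to 0.431) in ND. The ratio of Pfkp to Pfkm was 0.177, 0.178 and 0.175. Aldoa and Aldoc, the aldolases of muscle and brain, had log2 fold changes of 0.56 and 0.99, and Tpi1 of 0.03, none of them called. Slc2a1 stood at 7.04 CPM in HFD_DMSO and 7.47 CPM in ND.

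From triose phosphates to pyruvate no member was called, and the fold changes of the 6 genes ran from -0.95 to 0.98 with a median of -0.02, which was -0.57 after the GC correction. Pgam1, the phosphoglycerate mutase, stood at the low end, at 29.1 CPM in HFD_DMSO and 56.2 CPM in ND. Eno2, the neuronal and endocrine enolase, stood at the high end, at 76.3 CPM in HFD_DMSO and 38.7 CPM in ND, with a GC-corrected log2 fold change of 0.41. The ubiquitous enolase Eno1 stood at 258 and 206 CPM, so that the ratio of Eno2 to Eno1 per kilobase was 0.338 (0.315 to 0.364) in HFD_DMSO and 0.214 (0.198 to 0.232) in ND. Pgk1, the first enzyme of glycolysis to yield ATP, stood at 75.3 CPM in HFD_DMSO and 127 CPM in ND, Gapdh at 31.8 and 35.3 CPM, and Pkm at 877 and 809 CPM.

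Of the cytosolic and mitochondrial enzymes at the pyruvate branch point, Ldhb (chromosome 6, 142490249 to 142507957), the heart-type lactate dehydrogenase subunit, was called higher in HFD_DMSO. It had 668 reads in HFD_CGP, 680 in HFD_DMSO and 411 in ND, or 33.1, 53.8 and 21.3 CPM. Its log2 fold change of HFD_DMSO over ND was 1.34 (1.16 to 1.52), with an adjusted p of 0.0108 from the exact test in the authors' deposited table. With library totals in place of TMM factors its log2 fold change was 0.80, not called. Ldha, the muscle-type subunit and no member of the set, was called higher as well, by 1.23, and the ratio of Ldhb to Ldha per kilobase was 4.03 (3.54 to 4.59) in HFD_DMSO and 3.73 (3.17 to 4.41) in ND, with overlapping intervals. Pcx, the pyruvate carboxylase, stood at 117 CPM in HFD_DMSO and 98.2 CPM in ND, and Me1, the cytosolic malic enzyme that makes NADPH, at 18.1 and 10.4 CPM, both not called.

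The 4 members from the pyruvate dehydrogenase complex all had negative log2 fold changes in HFD_DMSO over ND. Of these, 2 were called lower, where 13.2% of all genes were, and 0 were called after the GC correction described below. The median of the 4 was -1.14, and -0.45 after that correction. Pdha1 (chromosome X, 160122209 to 160138413), the E1 alpha subunit that the kinases phosphorylate, had 774 reads in HFD_CGP, 440 in HFD_DMSO and 2032 in ND, or 38.3, 34.8 and 105 CPM. Both high-fat libraries were thus far below ND. The log2 fold change of HFD_DMSO over ND was -1.60 (-1.75 to -1.45), with an adjusted p of 0.00179 from the exact test in the authors' deposited table. Dld (chromosome 12, 31331277 to 31351453), the E3 dihydrolipoamide dehydrogenase that the 2-oxoglutarate dehydrogenase complex also uses, had 1161, 571 and 2578 reads, or 57.5, 45.2 and 134 CPM. It fell by 1.56 (-1.70 to -1.43) on the log2 scale in HFD_DMSO, with an adjusted p of 0.00217 in the same table. The other subunits in the set were not called: Pdhb, the E1 beta subunit, stood at 82.0 CPM in HFD_DMSO and 134 CPM in ND, and Dlat, the E2 acetyltransferase, at 31.7 and 37.4 CPM. Pdhx, a subunit of the complex outside the set, stood at 10.4 CPM in HFD_DMSO and 17.3 CPM in ND. Its log2 fold change of -0.74 was not called. Pdha1 and Pdhb form 1 enzyme, and their ratio per kilobase was 0.435 (0.399 to 0.473) in HFD_CGP, 0.439 (0.392 to 0.491) in HFD_DMSO and 0.813 (0.767 to 0.862) in ND, so the alpha transcript was lower relative to its beta partner in both high-fat libraries.

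The kinases that switch this complex off did not move together. Pdk1 (chromosome 2, 71873224 to 71903858) had 452 reads in HFD_CGP, 230 in HFD_DMSO and 938 in ND, or 22.4, 18.2 and 48.6 CPM. It fell by 1.42 (-1.63 to -1.21) on the log2 scale in HFD_DMSO, with an adjusted p of 0.00685 from the exact test in the authors' deposited table. Pdk2, the most widely expressed of the 4 kinases, had 480, 318 and 238 reads, or 23.8, 25.2 and 12.3 CPM, and a log2 fold change of 1.03 (0.78 to 1.28) that was not called (adjusted p 0.0647 in the authors' deposited table). Of the members not called, it had the largest fold change, and after a correction for GC content described below it stood at 0.28. The ratio of Pdk1 to Pdk2 per kilobase was 0.383 (0.336 to 0.436) in HFD_CGP, 0.294 (0.247 to 0.350) in HFD_DMSO and 1.60 (1.39 to 1.86) in ND. Pdk1 was therefore the more abundant of this pair in ND, and Pdk2 in both high-fat libraries. Pdk3 stood at 7.04 CPM in HFD_DMSO and 11.4 CPM in ND, and Pdk4, a kinase gene that fasting and fatty acids induce in many tissues, at 14.1 and 16.2 CPM, both not called.

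**Figure D2:**
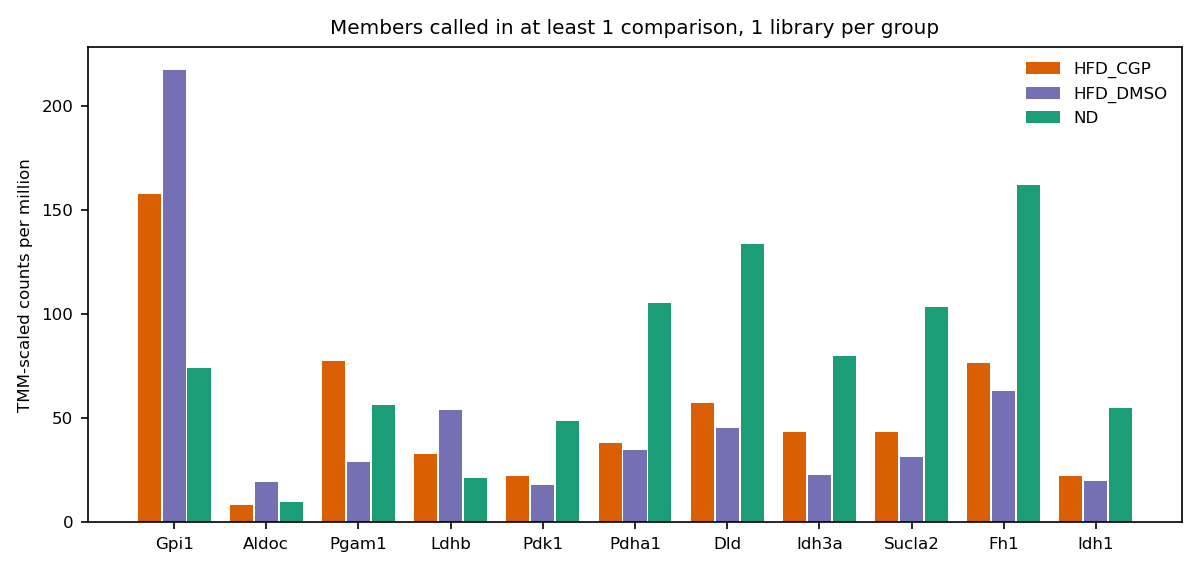
TMM-scaled CPM (y axis) of the 11 members called in 1 or more comparisons, with 1 bar per library (HFD_CGP, HFD_DMSO, ND from left to right). Gpi1, Ldhb and Aldoc are highest in HFD_DMSO, the 7 members called lower in HFD_DMSO than in ND are highest in ND, and Pgam1 is highest in HFD_CGP.

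Of the 11 genes of the citric acid cycle, 3 were called lower in HFD_DMSO than in ND, where 13.2% of all genes were, and 8 were not called. Their median was -0.32, and after the GC correction it was -0.03 with 1 gene called lower. Idh3a (chromosome 9, 54586334 to 54604661), the catalytic subunit of the NAD-linked isocitrate dehydrogenase, had 879 reads in HFD_CGP, 288 in HFD_DMSO and 1541 in ND, or 43.5, 22.8 and 79.9 CPM. Its fold change was the most negative of the members that were called, at -1.81 (-2.0 to -1.63), with an adjusted p of 0.000402 from the exact test in the authors' deposited table. Idh3b and Idh3g, the other subunits of that enzyme, had log2 fold changes of 0.07 and -0.13. The ratio of Idh3a to Idh3b per kilobase was 0.310 (0.285 to 0.335) in HFD_CGP, 0.178 (0.156 to 0.203) in HFD_DMSO and 0.657 (0.612 to 0.705) in ND. The catalytic subunit was thus the scarcest of the 3 transcripts in every library, and the 3 intervals of this ratio did not overlap.

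Sucla2 (chromosome 14, 73525319 to 73596142), the ATP-forming beta subunit of succinyl-CoA ligase, had 881 reads in HFD_CGP, 400 in HFD_DMSO and 1997 in ND, or 43.6, 31.7 and 104 CPM. It fell by 1.71 (-1.87 to -1.55) on the log2 scale in HFD_DMSO, with an adjusted p of 0.000805 from the exact test in the authors' deposited table. Suclg2, the GTP-forming beta subunit, stood at 33.5 CPM in HFD_DMSO and 46.0 CPM in ND, and Suclg1, the shared alpha subunit, at 71.6 and 108 CPM. The ratio of Sucla2 to Suclg2 per kilobase was 1.71 (1.54 to 1.90) in HFD_CGP, 1.1 (0.954 to 1.26) in HFD_DMSO and 2.61 (2.41 to 2.82) in ND, so the ATP-forming subunit outweighed the GTP-forming one in HFD_CGP and ND, and the interval in HFD_DMSO included equality. Fh1 (chromosome 1, 175600374 to 175625635), the fumarase, had 1546, 798 and 3127 reads in the same order, or 76.6, 63.2 and 162 CPM. Its log2 fold change of HFD_DMSO over ND was -1.36 (-1.47 to -1.25), with an adjusted p of 0.00812 in that table. The remaining genes were not called. Citrate synthase Cs stood at 42.3 CPM in HFD_DMSO and 43 CPM in ND, Mdh2 at 192 and 160 CPM, and Dlst, the E2 subunit of the 2-oxoglutarate dehydrogenase complex, at 73.3 and 91.5 CPM. Ogdh, the E1 subunit of that complex, stood at 165 CPM in HFD_DMSO and 82.8 CPM in ND and was not called. Its adjusted p was 0.0635 from the exact test in the authors' deposited table, and its GC-corrected log2 fold change was 0.68. Dld, which completes the same complex, was called lower, but after the GC correction it stood at -0.65 and was not called.

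Outside the cycle itself, Idh1 (chromosome 1, 65158616 to 65186500), the cytosolic NADP-linked isocitrate dehydrogenase, was called lower. It had 452 reads in HFD_CGP, 254 in HFD_DMSO and 1062 in ND, or 22.4, 20.1 and 55.1 CPM. The log2 fold change of HFD_DMSO over ND was -1.45 (-1.66 to -1.25), with an adjusted p of 0.00534 from the exact test in the authors' deposited table. Idh2, its mitochondrial relative, stood at 118 CPM in HFD_DMSO and 144 CPM in ND, and Aco1, the cytosolic aconitase and iron-regulatory protein, at 29.8 and 42.3 CPM. Of the shuttle enzymes, none was called: Mdh1 stood at 212 CPM in HFD_DMSO and 344 CPM in ND, Got1, the cytosolic aspartate aminotransferase, at 30.6 and 22.8 CPM, and Got2, the mitochondrial one, at 64.8 and 34.8 CPM. Summed over genes, the 14 rows of glycolysis made up 2257 CPM in HFD_CGP, 2409 in HFD_DMSO and 1975 in ND, and the 11 genes of the cycle 991, 893 and 1082 CPM. The read ratio of the first sum to the second was 2.28 in HFD_CGP, 2.70 in HFD_DMSO and 1.83 in ND. Pkm, at 724, 877 and 809 CPM, and Aldoa, at 587, 546 and 370 CPM, were the largest terms of the glycolysis sum. The GC-corrected medians of HFD_DMSO over ND, -0.03 and -0.57 for glycolysis up to and after the triose phosphates and -0.03 for the cycle, did not show that difference between the pathways. In these bulk libraries, fewer cells of a type and less RNA per cell cannot be told apart.

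**Figure D3:**
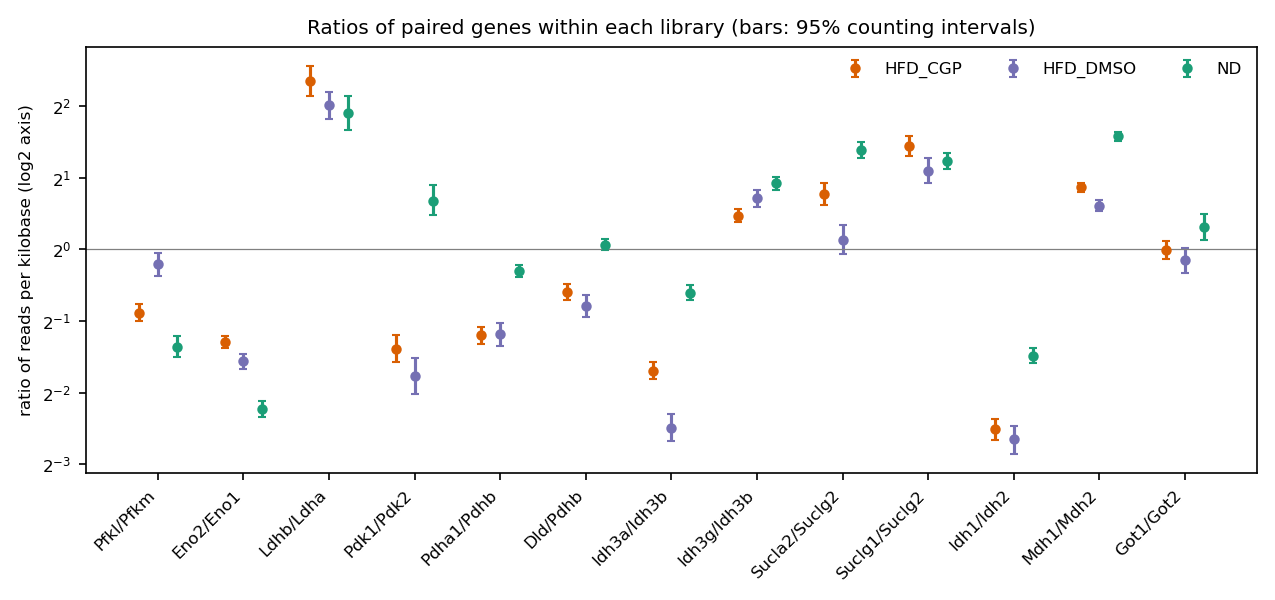
Ratio of reads per kilobase of 13 gene pairs (y axis, log2 scale) within each library, so that library scaling cancels, with 95% counting intervals. Pdk1 over Pdk2, Pdha1 over Pdhb, Idh3a over Idh3b and Idh1 over Idh2 lie lower in both high-fat libraries than in ND, and Pfkl over Pfkm and Eno2 over Eno1 lie higher.

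The calls went along with the base composition of the transcripts. Across all 43 rows the log2 fold change of HFD_DMSO over ND had a Spearman correlation of 0.57 with the GC content of the longest transcript, as a description across genes of the same 2 libraries. The 7 members called lower had a GC content of 40.6% to 47.7%, the 2 called higher had 52.1% and 53.0%, and the median of the 34 not called was 52.2%. With fold changes centred on a smooth curve over GC content, 3 rows were called lower, against 9.18% of all genes, and 2 higher, against 11.9%. Idh3a remained called, at -1.41, and Gpi1, at 1.28. The other 6 of the 7 members called lower were not called then, with log2 fold changes of -0.97 (Pdk1), -1.06 (Pdha1), -0.65 (Dld), -0.96 (Sucla2), -1.05 (Fh1) and -0.76 (Idh1), and neither was Ldhb, at 0.97. Called in their place were Me1 (1.38), Pgam1 (-1.29) and the 2nd Aldoa ID (-1.83). Ratios of subunits with like GC content are left nearly as they are by the way the correction is built, so these are given as values only. The log2 difference of HFD_DMSO against ND in Idh3a over Idh3b was -1.88 before and -1.85 after the correction, that of Pdha1 over Pdhb was -0.89 and -0.80, and that of Sucla2 over Suclg2 was -1.25 and -1.14. That of Idh1 over Idh2, whose GC content is 43.8% and 55.6%, was -1.17 before and 0.17 after, and that of Pdk1 over Pdk2 was -2.45 and -1.25. Whether base composition, or RNA quality that follows it, set these differences was not tested.

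**Figure D4:**
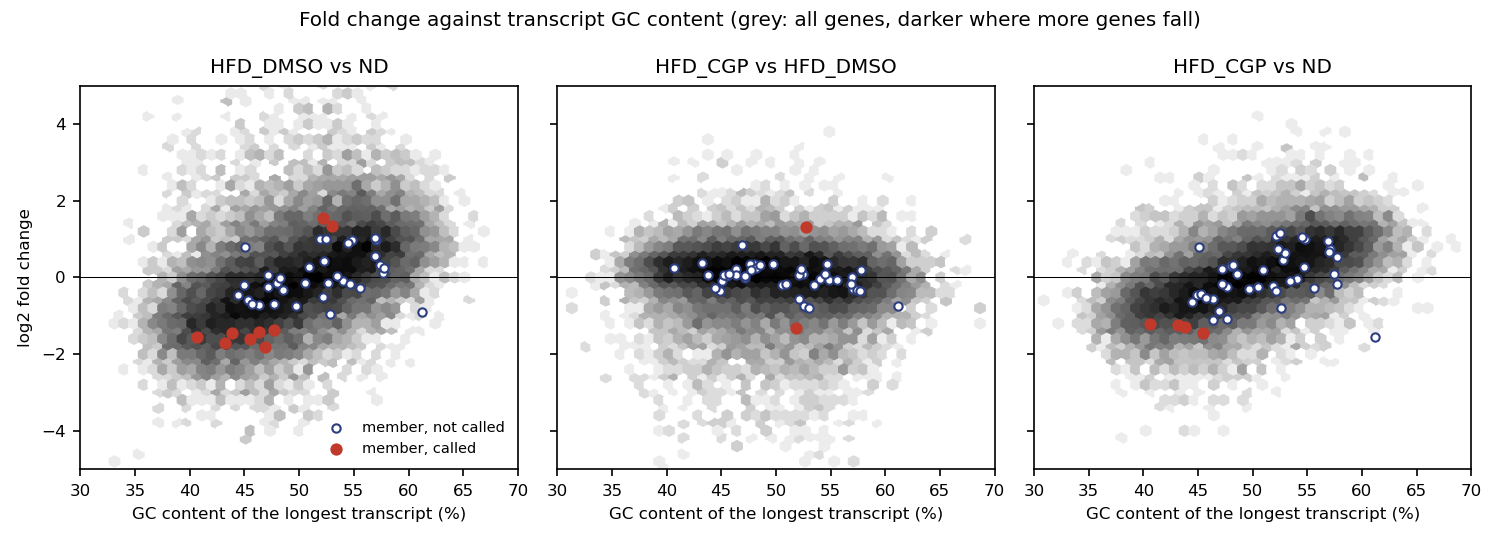
Log2 fold change (y axis) against the GC content of the longest transcript in percent (x axis) for all genes with at least 10 normalized counts (grey, darker where more genes fall, those beyond the axes not drawn) and the 43 member rows (points, filled where called), in the 3 comparisons. Spearman correlations over the members are 0.57, -0.33 and 0.53 from left to right, and the 7 members called lower in HFD_DMSO vs ND lie at 40.6% to 47.7% GC.

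With CGP 57380 on the high-fat diet, few of these enzymes differed from vehicle. In the authors' deposited table for HFD_CGP against HFD_DMSO, 1 of the 43 rows (2.33%) was called higher, against 1.40% of all 22208 genes, and 1 (2.33%) was called lower, against 4.95%. The median log2 fold change was 0.06 over the 42 rows with at least 10 normalized counts, against 0.03 over all genes at that level. By size alone, 1 row had a log2 fold change of at least 1 and 1 of at most -1, against 7.06% and 14.1% of those genes. Pgam1 (chromosome 19, 41911871 to 41918664), whose start region is shown above, had 1568 reads in HFD_CGP, 368 in HFD_DMSO and 1084 in ND, or 77.7, 29.1 and 56.2 CPM. The HFD_CGP library was thus the highest of the 3 and HFD_DMSO the lowest. It rose by a log2 fold change of 1.33 (1.16 to 1.49) in HFD_CGP against HFD_DMSO, with an adjusted p of 0.0332 from the exact test in the authors' deposited table. Its ratio per kilobase to Pgk1, the enzyme before it in the pathway, was 0.927 (0.868 to 0.990) in HFD_CGP, 0.474 (0.419 to 0.535) in HFD_DMSO and 0.542 (0.504 to 0.582) in ND.

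Aldoc (chromosome 11, 78322968 to 78327781) had 168 reads in HFD_CGP, 245 in HFD_DMSO and 188 in ND, or 8.32, 19.4 and 9.75 CPM, so that HFD_DMSO stood above both other libraries. It fell by 1.31 (-1.60 to -1.02) on the log2 scale in HFD_CGP against HFD_DMSO, with an adjusted p of 0.0496 from the exact test in the authors' deposited table, just inside the threshold. Its call was lost when library totals replaced TMM factors, at -0.66. Idh3a was the member nearest to a call among the rest, with 43.5 CPM in HFD_CGP and 22.8 CPM in HFD_DMSO and a log2 fold change of 0.84 (0.65 to 1.04). Of the members called lower in HFD_DMSO than in ND, the others had log2 fold changes of HFD_CGP over HFD_DMSO between 0.05 (Pdha1) and 0.37 (Sucla2). Gpi1 and Ldhb stood at -0.55 and -0.79, not called. The Spearman correlation with GC content across the 43 rows was -0.33 in this comparison, and both calls held after the GC correction, at 1.38 for Pgam1 and -1.27 for Aldoc, with 2.08% of all genes then called higher and 7.06% lower.

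Against the normal diet, the treated high-fat islets had lower levels of 4 of the genes that were also lower in vehicle islets. In the authors' deposited table for HFD_CGP against ND, 0 of the 43 rows were called higher, against 4.57% of all 23063 genes, and 4 (9.30%) were called lower, against 4.36%. The median was -0.16, against 0.01 over all genes. By size alone, 4 rows had a log2 fold change of at least 1, against 14.9% of genes with at least 10 normalized counts, and 7 had one of at most -1, against 14.2%. Pdha1 fell by 1.46 (-1.58 to -1.34) on the log2 scale, with an adjusted p of 0.0125 from the exact test in the authors' deposited table. Idh1 followed at -1.30 (-1.46 to -1.14), Sucla2 at -1.25 (-1.36 to -1.13) and Dld at -1.22 (-1.32 to -1.12), with adjusted p of 0.0323, 0.039 and 0.0447 in that table. With library totals without the insulin genes Sucla2 and Dld were not called, and with DESeq2 size factors Dld was not. Both comparisons use the same ND library, so the overlap is not independent.

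Pdk1, Fh1 and Idh3a, called lower in HFD_DMSO, had log2 fold changes of -1.12, -1.08 and -0.88 in HFD_CGP over ND and were not called. On the positive side Ogdh came nearest, at 186 CPM in HFD_CGP and 82.8 CPM in ND, a log2 fold change of 1.17 (1.08 to 1.25) with an adjusted p of 0.0547 from the exact test in the authors' deposited table. A likelihood ratio test on the same reads called it, as the 1 member higher. Gpi1 stood at 1.09, Got2 at 1.07 and Eno2 at 1.01, all not called. With the GC correction Ogdh stood at 0.89, Gpi1 at 0.84, Got2 at 0.60 and Eno2 at 0.51. After the GC correction 0 rows were called higher, against 2.63% of all genes, and 1 was called lower, against 2.52%. That row was the 2nd Aldoa ID, with 7 reads in HFD_CGP and 20 in ND, and the 4 members above had values of -1.06 (Pdha1), -0.77 (Idh1), -0.67 (Sucla2) and -0.50 (Dld).

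Ordered by TMM-scaled level, 16 of the 43 rows were highest in ND, intermediate in HFD_CGP and lowest in HFD_DMSO, and 5 more were highest in ND with HFD_CGP lowest. HFD_DMSO was the highest library in 10 rows and HFD_CGP in 12. Many of these orders rest on differences that were not called.

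Genes of the same pathways outside the set were read from lists made alongside it. In HFD_DMSO against ND their counts are to be read against the 12.6% of all genes called higher and 13.2% called lower, and after the GC correction against 11.9% and 9.18%. Of 22 other glycolysis genes, 7 were called higher and 4 lower, and 6 and 4 after the correction. Among those with at least 100 normalized counts, Slc2a2 fell by 2.80 on the log2 scale, Pfkfb2, which makes the activator of phosphofructokinase, fell by 1.57 (-1.04 and not called after the correction), its relative Pfkfb3 rose by 1.68, and the muscle enolase Eno3 rose by 2.36. Hk2, Hkdc1, Slc16a1 and Slc16a3 were also among the glycolysis genes called higher, at low counts. They had 5, 3, 6 and 4 reads in ND, and 17, 30, 53 and 24 in HFD_DMSO. Of 17 other genes of pyruvate and the cycle, 2 were called higher and 7 lower, and 2 and 6 after the correction. Pdpr, a regulator of the phosphatase that reactivates pyruvate dehydrogenase, fell by 3.81, with 11 reads in HFD_DMSO and 238 in ND. The mitochondrial malic enzyme Me2 fell by 1.82, Pdp2 fell by 1.61 and the citrate-cleaving enzyme Acly fell by 1.45. The mitochondrial carboxykinase Pck2 rose by 1.48.

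Of 10 metabolite shuttle genes, 1 was called higher (the dicarboxylate carrier Slc25a10, 1.71) and 2 lower: Gpd2, the mitochondrial glycerol phosphate dehydrogenase (-2.02), and Slc25a13, an aspartate-glutamate carrier (-1.22). After the GC correction Gpd2 was still called, at -1.59, and Slc25a10 (0.78) and Slc25a13 (-0.84) were not. Of 8 pentose phosphate genes, 1 was called higher (Pgls, 1.40) and 1 lower (Rpe, -1.78), shares like those of all genes, and neither was called after the correction (0.62 and -0.80). Of 16 targets of hypoxia-inducible factor outside the set, 3 were called higher, among them Bhlhe40 at 1.30, and 1 lower, Bnip3 at -2.41. After the correction the counts were 3 and 2. Of the glucose-responsive factor ChREBP and 3 related genes, 1 was called lower, its partner Mlx at -1.75 (-1.83 after the correction). In HFD_CGP against HFD_DMSO the same 6 lists gave 1 call higher, Pdpr at 1.92, and 4 lower among 77 genes, against 1.40% and 4.95% of all genes. In HFD_CGP against ND they gave 3 higher and 6 lower, against 4.57% and 4.36% of all genes, with Slc2a2 at -2.63, Gpd2 at -1.94, Slc25a13 at -1.90, Pdpr at -1.81 and Txnip, a glucose-induced thioredoxin partner, at -1.46 among the lower, and Ogdhl, a relative of Ogdh, at 1.79, Eno3 at 1.60 and Pck2 at 1.30 as the higher ones.

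Hormone and identity genes of islets were abundant in each library, and markers of other pancreatic cells moved with the comparisons. In HFD_CGP, HFD_DMSO and ND the 7 alpha cell markers summed to 11328, 5939 and 22473 CPM, and the 11 beta cell markers, insulin included, to 197202, 586956 and 172716 CPM. Most of the beta cell sum was Ins2, at 116626, 383353 and 119279 CPM, and Ins1, at 50021, 177822 and 16721 CPM. Ins1 and Ins2 were the 2 beta cell markers called higher in HFD_DMSO than in ND. Another 4 of the 11, Slc2a2, G6pc2, Slc30a8 and Glp1r, were called lower, and the median log2 fold change of the list was -0.39. The 11 acinar markers were all detected in every library, and all 11 were called lower in HFD_CGP than in each of the other libraries. The 7 duct markers summed to 454, 793 and 362 CPM, of which Krt7 made 358, 342 and 298 CPM. Of these 7, 5 were called higher in HFD_DMSO than in ND, with a median log2 fold change of 3.26. The 8 stellate cell and fibroblast markers summed to 121, 459 and 34.1 CPM, and 7 of them were called higher in HFD_DMSO than in ND. The 6 endothelial markers summed to 655, 511 and 372 CPM, and the 6 macrophage markers to 182, 273 and 139 CPM. Of the defining markers of these types none was at 0 in any library. The 5 erythrocyte markers summed to 67.1, 133 and 43.4 CPM, the 6 lymphocyte markers to 7.78, 18.8 and 21.8 CPM, and the 3 adipocyte markers to 34.0, 50.7 and 11.6 CPM. Cd79a made 6.49, 5.70 and 21.1 CPM of the lymphocyte sum and was called lower in HFD_DMSO than in ND. In that comparison 4 of the 6 lymphocyte markers were called higher, each with at most 3 reads in ND. Fabp4 made 33.9, 50.6 and 11.4 CPM of the adipocyte sum. The 5 delta and PP cell markers summed to 6661, 9022 and 9383 CPM. At 0 were Ms4a1 in ND, Cidec in HFD_CGP and HFD_DMSO, and Adipoq in ND. The part of these cells in the values of the enzymes was not tested.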

How the data were processed

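RNA-seq of mouse islets was used as 3 deposited full tables, 1 per pair of the 3 libraries. The submitters' processing notes name DESeq2 1.10.1; aligner, read counter, genome build and strandedness: not given in the sources used here. The deposited tables give a signal value per gene and library, made by the authors from read counts scaled within each pair, a log2 fold change, and a p-value with its adjusted form. Whole reads were recovered from these values for 100% of genes, and the tables that share a library gave different reads for 0 genes. On these reads, edgeR 4.0.16's exact test (TMM factors, fixed dispersion 0.04, at least 2 reads over the pair) gave calls that differed from the deposited ones for 0 genes. These settings were inferred by recomputing the tables, since neither labels nor headers state them. Calls were taken from the authors' deposited table (threshold 0.05 on its adjusted p), and adjusted p-values are Benjamini-Hochberg values over all genes of a table. Fold changes are the recomputed ones, with Clopper-Pearson 95% intervals. Levels use TMM factors over the 3 libraries and the gene length of the tables.

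A count of 0 allows up to 3 reads, or 0.170 CPM in HFD_CGP, 0.184 in HFD_DMSO and 0.175 in ND; intervals and floors cover counting error only. Medians leave out rows below 10 normalized counts in both libraries. GC content is that of the longest GENCODE M21 transcript; 42 of the 43 rows had the same GRCm38 position there (Pgam1 differed), and coordinates are those of the deposited tables. The GC correction enters a lowess curve (span 0.3) as an offset in a likelihood ratio test at the same dispersion. The fits were tested on simulated data. Idh3a had no entry in the promoter table. The markers Amy2a5, Plin1 and Lep were not found in the tables. Members called in any table were named, then up to 3 others per role by level, with paralogs of called members, and up to 4 called genes with at least 100 normalized counts per other pathway list. Pgam1's promoter, and other genes beside these, were added after their values were seen. The members and lists were chosen with earlier results of these data known.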

Additional observations from a re-analysis of the deposited data

How the results depend on the processing

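A single library per group allows no check against replicates, and the assumed spread decides the calls: when the coefficient of variation was set to 0.4 rather than 0.2, 0 members were called in any comparison and direction. No paired analysis was possible because each group has 1 library. None of the values changed sign among the called members under any alternative. In HFD_DMSO against ND, the count called higher (2) was 1 with library totals and 6 with at least 10 reads over the pair, which added Pfkl, Eno2, Pdk2 and Ogdh. The count called lower (7) was 14 with library totals and 3 with the GC correction, and the median (-0.15) was -0.69 with library totals. The table as a whole shifted with library totals: 5677 of all genes were called lower in place of 3023, 1600 higher in place of 2888, and their median was -0.61. The GC correction called 2099 of all genes lower. In HFD_CGP against HFD_DMSO, library totals gave 2 members called higher in place of 1 and a median of 0.71 in place of 0.06, while 3209 of all genes were called higher in place of 311, with a median of 0.71 over all genes. The 1 call lower, Aldoc, was lost (0 called) with library totals, with library totals without insulin genes and with no filter. In HFD_CGP against ND, the count called higher (0) was 1 with library totals, DESeq2 size factors, at least 10 reads or the likelihood ratio test, 2 with library totals without insulin genes, and 4 at an absolute log2 fold change of at least 1. The count called lower (4) was 2 with library totals without insulin genes, 1 with the GC correction and 7 at an absolute log2 fold change of at least 1. Over the 8 alternatives with a test, Gpi1, Idh3a and Pgam1 kept their calls in 7, while Aldoc and, in HFD_CGP against ND, Dld kept theirs in 4. The likelihood ratio test was chosen after seeing the data. Where a cause is not given by the setting itself, the cause was not tested.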
